A study of Drosophila melanogaster with 28 samples.

Results

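The genes described here encode nuclear subunits of the oxidative phosphorylation complexes of Drosophila melanogaster. They are the Release 6 protein-coding genes whose symbol begins with ND-, UQCR-, COX or ATPsyn, and there are 80 of them among the 13968 protein-coding genes of the 7 chromosomes. The symbols of 21 members end in L or in L and a digit and name paralogues, mostly known from testis, while the other 59 are main subunits. ND-MNLL counts among the main subunits because its letters are the subunit's own name. Of the L-suffix paralogues, 6 belong to complex I, 3 to complex III, 8 to complex IV and 4 to complex V. Of the main subunits, 34 belong to complex I, 6 to complex III, 8 to complex IV and 11 to complex V. The symbol rule leaves out some nuclear subunits, so these totals are not those of whole complexes.

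Chromatin came from testis tumours driven by overexpression of the JAK-STAT ligand Upd. Germline tumours carried y[1] w[1118] P{hs70FLP}, the germline driver P{w[+mC]=GAL4::VP16-nanos.UTR} over UAS-Upd, and the histone cassette UAS-FRT-H3-GFP-FRT-H3-mKO, and are labelled as chromatin like that of germline stem cells. Cyst tumours were w[1118] with traffic Jam-GAL4 over UAS-Upd and the same histone cassette, and are labelled as chromatin like that of cyst stem cells. Both tumour types therefore carried the Upd and the tagged H3 transgenes, and the driver set which cells of the tumour expressed them. An antibody to GFP directed a protein A-micrococcal nuclease fusion to the tagged chromatin (chromatin immunocleavage), and part of the released chromatin was immunoprecipitated (IP) for H3K4me3, H3K27me3 or H3K9me3 while another part served as input. There were 2 preparations per tumour type for H3K4me3, 3 for H3K27me3 and 2 for H3K9me3, each with an IP and an input, 28 libraries in all. Testes were pooled, and nothing in the labels says that preparations came from separate crosses, so p-values measure the spread between preparations only.

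The deposited signal is a scaled fragment count per window of 40 bp, where 1 is the autosomal median of the library. Libraries held between 942943 fragments (H3K27me3 IP, germline replicate 1) and 18199704 fragments (H3K9me3 input, germline replicate 2). The scaling takes out depth and the genome-wide amount of a mark, so every value is relative to the rest of the genome. In the H3K4me3 preparations each tumour type has its own batch label, so batch and tumour type cannot be told apart there. Germline replicate 3 of H3K27me3 carries another batch label than the other H3K27me3 preparations, and all H3K9me3 preparations share 1 batch label. Lineage markers gave limited separation of the tumours by H3K4me3 at promoters. Among 9 germline genes, zpg was called higher in IP than in input in germline tumours, against piwi and zpg in cyst tumours, and vas, a germline helicase gene, was called lower than input in both. Among 6 genes listed for the cyst lineage, zfh1 was called higher than input in germline tumours, against upd1 and chinmo in cyst tumours. Of the same list, tj was called in neither. The gene upd1 encodes the ligand Upd, whose transgene both tumours carried. Fragments at upd1 can therefore not be given to the gene itself alone, and it is no clear marker of the cyst lineage here. None of the listed genes passed the test of germline minus cyst, so the tumour names are used here as labels. In bulk chromatin, fewer cells with a mark and less of the mark per cell cannot be told apart.

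Oxidative phosphorylation passes electrons from NADH through complex I and complex III to complex IV, which reduces oxygen, and complex V uses the proton gradient this builds to make ATP. Mitochondria of the developing male germline of flies are remodelled as spermatids elongate, and several subunits have paralogues expressed mainly in the testis, often retrocopies with few introns. H3K4me3 is known to mark the promoters of transcribed genes, H3K27me3 is the mark of Polycomb repression, and H3K9me3 is the mark of heterochromatin.

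The paralogue genes differed in architecture from the main subunit genes. The coding sequence lay in a single exon in 10 of 21 paralogues (47.6%), 8 of 59 main subunits (13.6%) and 20.9% of all genes. Another gene enclosed 9 of 21 paralogues (42.9%), against 2 of 59 main subunits (3.39%) and 13.4% of all genes. Those 9 nested paralogues are ND-49L in Fur1, ND-51L1 in Smurf, ND-51L2 in Trpm, ND-B14.5AL in CG14459, UQCR-11L in Acsl, UQCR-6.4L in Mipp1, COX5BL in Trmt6, COX6AL in Cyp4aa1 and ATPsynCF6L in Con. Within 500 bp of the annotated start, 3 of 21 paralogues (14.3%) had the start of another protein-coding gene, against 34 of 59 main subunits (57.6%) and 29.2% of all genes. Fragments in such a shared window cannot be given to either gene. Likewise, fragments over a nested paralogue also lie in its host gene and cannot be given to the paralogue alone. No paralogue lay on the X chromosome or chromosome 4, against 12 and 2 main subunits. The median GC content of the promoter window was 42.4% for the paralogues, 41.6% for the main subunits and 42.4% for all genes. Most paralogues are short, with 15 of 21 under 1 kb, against 20 of 59 main subunits, so promoter and gene body windows overlap in many members.

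The stretches below show the promoter motifs found in part of the main subunits and, in 1 case, in a paralogue. No difference in motif counts between the sets was tested. The window searched ran from 250 bp before the annotated start to 50 bp after it, on both strands, in the RefSeq genome of the Release 6 assembly (dm6) with Ensembl's gene starts. TATCGATA, the core of the DNA replication-related element, was found in 0 of 21 paralogues, 9 of 59 main subunits (15.3%) and 9.36% of all promoters. A nuclear respiratory gene element, searched as TTACGTAA, TTACATAA, TTATGTAA or TTATATAA, was found in 0 of 21 paralogues, 5 of 59 main subunits (8.47%) and 5.18% of all promoters. The last of these spellings contains the letters of a TATA box. GGTCACACT, the core of a motif of broadly used fly promoters, was found in 1 of 21 paralogues (4.76%), 14 of 59 main subunits (23.7%) and 6.04% of all promoters. AGTGTGACC is the same motif read on the other strand. At least 1 of these 3 motifs was present in 1 of 21 paralogues (4.76%), 26 of 59 main subunits (44.1%) and 19% of all promoters. An initiator core, TCAGT or TCATT on the sense strand beginning within 5 bp of the start, was found in 2 of 21 paralogues (ATPsynbetaL and COX6AL2, 9.52%), 3 of 59 main subunits (5.08%) and 14.2% of all promoters. A match describes letters only and is not shown to be bound. Each stretch is written 5′ to 3′ on the strand of its gene, with the motif in capitals and its position counted to its first base from the start. COX7AL at chr3R:8343496-8343525 (+), position -162, is the paralogue with a match to 1 of the 3 motifs, and COX7A at chr3R:8341027-8341056 (-), position -2, is its main subunit. The others are COX4 at chr2L:19958600-19958629 (+), position -102; ND-B14.5A at chrX:2172444-2172473 (+), position -71; UQCR-14 at chrX:16286215-16286244 (+), position -62; ND-42 at chr3R:22027554-22027583 (+), position -144; ND-30 at chr3L:3159721-3159750 (-), position -161; COX5A at chr3R:11819312-11819341 (+), position -36; ATPsynD at chr3R:19094883-19094912 (+), position -106; and ND-18 at chrX:19492407-19492436 (+), position -3.
COX7AL: agagagcgaatAGTGTGACCtaatttggca
COX7A: cgacatcgatgTATCGATAatacatcgata
COX4: gcgattgaataTATCGATAtattaatattt
ND-B14.5A: ttcgcgatagtTATCGATAagtatatcaat
UQCR-14: tgagtgcgataTATCGATAggtgcagtgtg
ND-42: ttttgtaagtgTTATATAAagtttttaaaa
ND-30: atatttattttTTATATAAatcatttaagc
COX5A: gttgaagatgcAGTGTGACCgcaattaaat
ATPsynD: aggcagctgatAGTGTGACCgacccgaggg
ND-18: accgctcgcctGGTCACACTggcactggcg

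H3K4me3 at promoters was higher in IP than in input at many main subunits and at almost none of their paralogues. Values are log2 of IP over input signal, with 0.1 added to each, over the window from 500 bp before to 500 bp after the start. A gene was called when limma's adjusted p, taken over all genes tested, was under 0.05 and the fold over 1.5. Where tumour groups are said to overlap or not, here and below, this describes the values only. The share of all genes without overlap was not counted, and groups of 2 preparations often do not overlap by chance. In germline tumours 1 of 21 paralogues (4.76%) and 22 of 59 main subunits (37.3%) were called higher, against 20.8% of 13686 genes tested. In cyst tumours 1 of 21 paralogues and 43 of 59 main subunits were called higher, against 27.7% of genes. Another gene's start lay in the window of 57.6% of main subunits and 14.3% of paralogues. Without such shared windows the germline share of main subunits called lay near the background, as given below. Calls in the lower direction took in 0 paralogues and 1 main subunit (ND-49) in germline tumours, where they held 4.5% of genes. In cyst tumours they took in 2 paralogues and 1 main subunit (ND-15), where they held 3.59% of genes. The median log2 IP over input was 0.11 for the paralogues, 0.41 for the main subunits and 0.21 for all genes in germline tumours. In cyst tumours the medians were 0.18 for the paralogues, 0.73 for the main subunits and 0.26 for all genes. All 80 members had enough fragments to be tested in every comparison.

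The order of the sets was the same in every preparation. In germline tumours, replicates 1 and 2, the paralogues had medians of -0.07 and 0.13, the main subunits 0.45 and 0.50, and all genes 0.21 and 0.23. In cyst tumours, replicates 1 and 2, the medians were 0.05 and 0.05 for the paralogues, 0.85 and 0.71 for the main subunits and 0.33 and 0.19 for all genes. Scaling by trimmed mean of M values (TMM) instead of the deposited scaling moved the median of all genes to -0.01 in germline and 0.00 in cyst tumours. Relative to the median of all genes, the main subunits stood at 0.20 in germline and 0.48 in cyst tumours under the deposited scaling, against 0.19 and 0.46 under TMM. The paralogues stood at -0.10 and -0.08 on that relative measure under the deposited scaling, against -0.10 and -0.09 under TMM. The paralogues' own median changes sign under TMM, to -0.12 in germline and -0.09 in cyst tumours, while the main subunits' stays positive at 0.18 and 0.46. Under TMM 11 main subunits were called higher and 6 lower in germline tumours, and 27 higher and 1 lower in cyst tumours, and no paralogue was called higher, with 0 lower in germline and 4 lower in cyst tumours. All genes then split into 1375 higher and 1436 lower in germline tumours, against 2841 and 616 under the deposited scaling. In cyst tumours they split into 1970 higher and 1457 lower under TMM, against 3786 and 492.

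**Figure D1:**
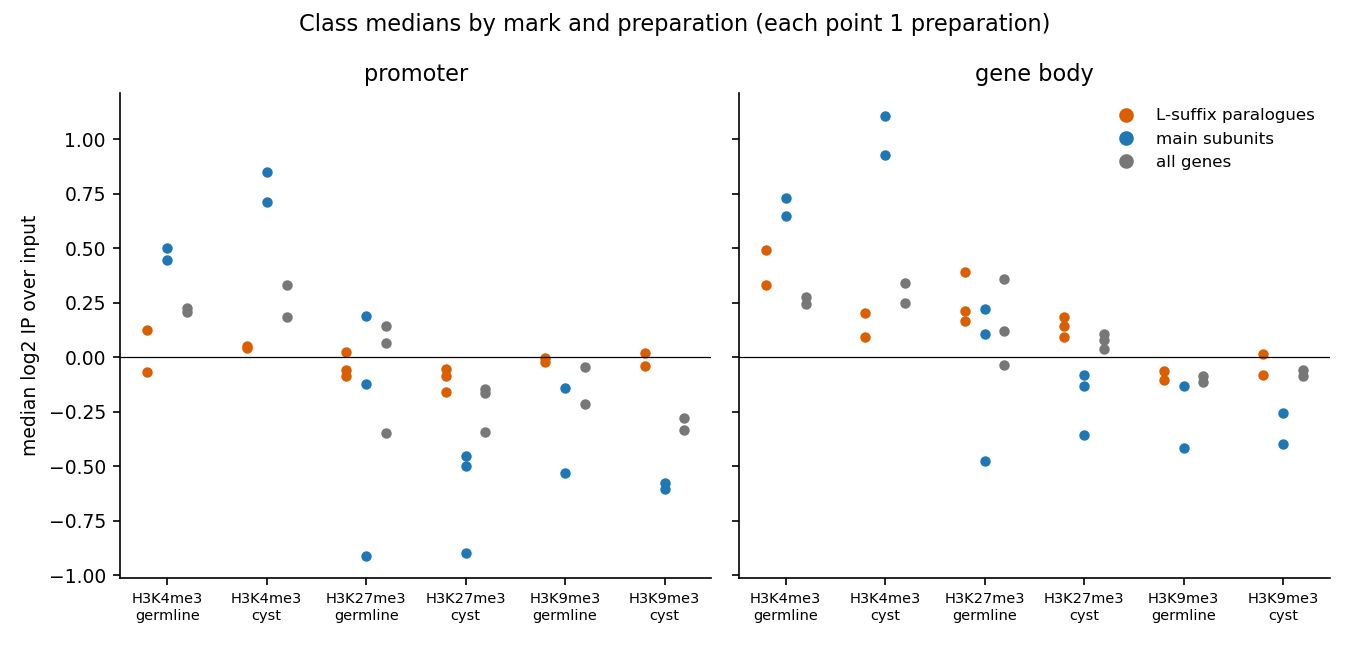
Median log2 IP over input of L-suffix paralogues, main subunits and all genes in each preparation, for each mark at the promoter and over the gene body. At H3K4me3 promoters the paralogues lie between -0.07 and 0.13 and the main subunits between 0.45 and 0.85 in the 4 preparations.

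Among the complex I paralogues, ND-B14.5AL, related to an accessory subunit, was called higher in germline tumours. Its log2 IP over input was 1.08 and 0.31 in germline tumours, against 0.04 and 0.63 in cyst tumours, and its germline fit gave 0.69 with an adjusted p of 0.038 (limma). The groups overlap and 1 preparation decides the value: without germline replicate 1 the fit gave 0.31 with an adjusted p of 0.64 (limma). Without either cyst preparation the adjusted p was 0.052 (limma). ND-24L, paralogue of a subunit of the NADH-oxidising module, had 0.11 and 0.18 in germline tumours, against -0.88 and -0.59 in cyst tumours. Behind these values lay IP signals of 1.33 and 1.35 beside inputs of 1.23 and 1.18 in germline tumours, and IP signals of 0.674 and 0.490 beside inputs of 1.33 and 0.786 in cyst tumours. The tumour groups do not overlap, and the cyst value of -0.73 was called lower than input with an adjusted p of 0.013 (limma). Without cyst replicate 1 it was -0.59 with an adjusted p of 0.15 (limma). The germline minus cyst difference of ND-24L was 0.88 with an unadjusted p of 0.011 and an adjusted p of 0.38 (limma), so it did not pass the test over all genes. Reading only from the start to 500 bp downstream, the cyst value of ND-24L changed sign to 0.16.

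The other complex I paralogues were not called at their promoters in either tumour. ND-51L2 had 0.39 and 0.66 in germline tumours, against 0.52 and 0.36 in cyst tumours, and its neighbour in name ND-51L1 had -0.43 and -0.00 in germline tumours, against -0.55 and -0.26 in cyst tumours. Both are paralogues of ND-51, the flavoprotein that binds NADH, so 2 copies of the same subunit lay on different sides of the input in cyst tumours. ND-20L had 0.35 and 0.23 in germline tumours, against 0.26 and 0.15 in cyst tumours. ND-49L, related to a core subunit of the quinone-binding module, had -0.20 and 0.42 in germline tumours, against 0.03 and -0.01 in cyst tumours. The values of ND-20L and of ND-49L overlapped between the tumours.

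In complex III, none of the 3 paralogues was called. UQCR-11L had -0.12 and 0.09 in germline tumours, against 0.08 and 0.29 in cyst tumours. UQCR-14L had -0.20 and 0.21 in germline tumours, against -0.13 and 0.05 in cyst tumours, and UQCR-6.4L had -0.09 and 0.10 in germline tumours, against -0.21 and -0.07 in cyst tumours. All of these complex III values lay between -0.21 and 0.29.

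In complex IV, COX7AL was called higher in cyst tumours. It had 0.34 and 0.33 in germline tumours, against 0.73 and 0.61 in cyst tumours, and the cyst fit of 0.67 had an adjusted p of 0.0093 (limma). The groups do not overlap, and the difference of -0.33 had an adjusted p of 0.73 (limma). COX7AL is the paralogue with a GGTCACACT match, and its window is a shared one, so the fragments cannot be given to COX7AL alone. Without cyst replicate 1 its adjusted p was 0.10 (limma). The other paralogue of COX7A, COX7AL2, had 0.32 and 0.07 in germline tumours, against 0.66 and -0.38 in cyst tumours, with preparations on both sides of the input. COX4L had -0.07 and -0.05 in germline tumours, against -0.31 and -0.44 in cyst tumours. COX5BL, which lies directly downstream of COX5B on chromosome arm 2L and starts inside Trmt6, had -0.11 and 0.43 in germline tumours, against 0.40 and 0.18 in cyst tumours. Its promoter window takes in the end of COX5B. COX6AL had -0.05 and 0.06 in germline tumours, against 0.10 and 0.54 in cyst tumours. COX6AL2 had -0.56 and 0.00 in germline tumours, against -0.07 and -0.32 in cyst tumours, and COX6CL had -0.28 and -0.30 in germline tumours, against 0.05 and -0.42 in cyst tumours. COX7CL had 0.24 and 0.15 in germline tumours, against 0.52 and 0.14 in cyst tumours. None of these 7 passed the test.

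In complex V, ATPsynCF6L, related to coupling factor 6 of the stator stalk, was called lower than input in cyst tumours. It had -0.21 and -0.68 in germline tumours, against -0.48 and -0.93 in cyst tumours, and the cyst fit of -0.71 had an adjusted p of 0.028 (limma). These rest on 16 and 14 IP fragments in germline and 18 and 16 in cyst tumours, and the call was lost without cyst replicate 1 (-0.93, adjusted p 0.079, limma) and without cyst replicate 2 (-0.48, adjusted p 0.31, limma). ATPsynbetaL, paralogue of the catalytic subunit, had 0.24 and 0.27 in germline tumours, against -0.02 and 0.45 in cyst tumours. ATPsynGL had 0.22 and 0.12 in germline tumours, against 0.35 and 0.08 in cyst tumours. ATPsynepsilonL had -0.10 and -0.06 in germline tumours, against 0.49 and -0.14 in cyst tumours. The tumours overlapped for each of these 3, and none was called.

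By complex, the main subunits were called in the following numbers. In germline tumours 10 of 34 complex I, 1 of 6 complex III, 6 of 8 complex IV and 5 of 11 complex V subunits were called higher, where 20.8% of all genes were. In cyst tumours the counts were 24 of 34, 3 of 6, 7 of 8 and 9 of 11 in the same order, where 27.7% of all genes were. The complexes' medians in germline tumours were 0.37 for complex I, 0.06 for III, 0.76 for IV and 0.57 for V. In cyst tumours they were 0.71 for complex I, 0.58 for III, 0.89 for IV and 0.99 for V. Differences between complexes were not tested, and complexes III and IV have only 6 and 8 main subunits.

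**Figure D2:**
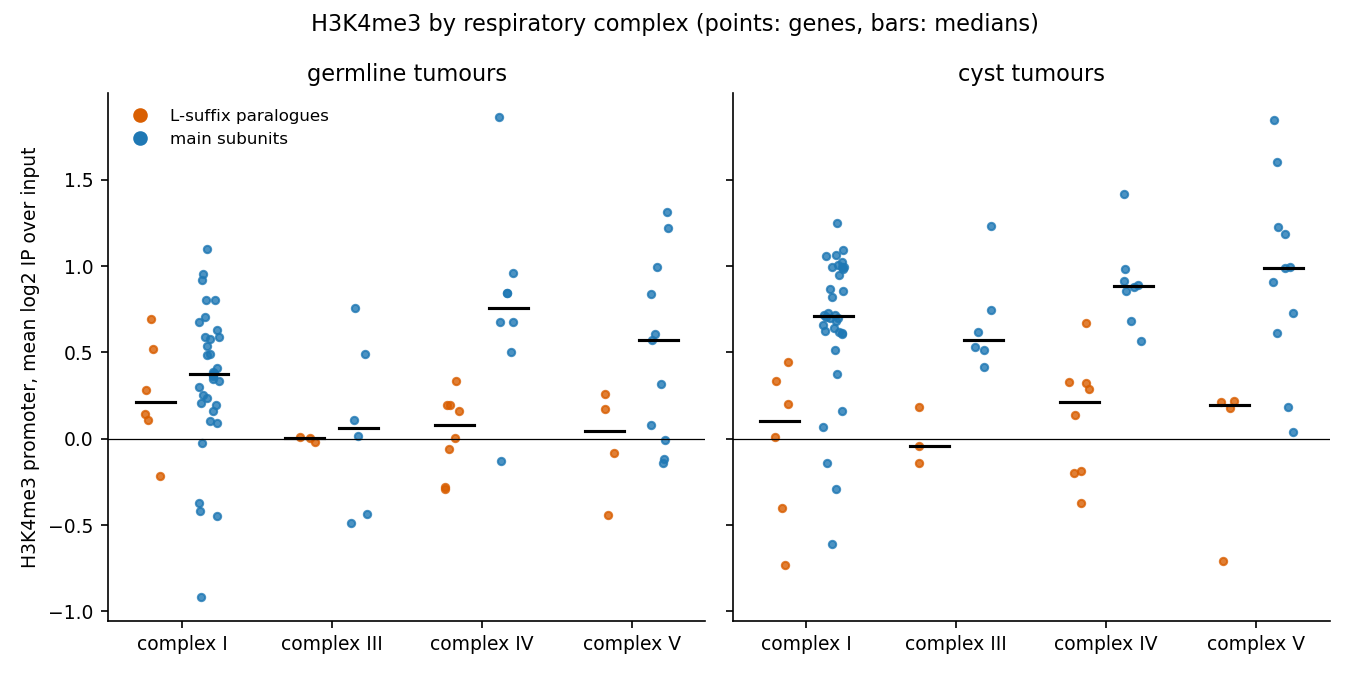
H3K4me3 at the promoter of each member by complex, as the mean log2 IP over input of the 2 preparations, germline beside cyst, with paralogues and main subunits in separate colours and a bar at the median of each set. Main subunits reach 1.86 in germline tumours (COX6B) and 1.85 in cyst tumours (ATPsynF), while no paralogue passes 0.69 in germline or 0.67 in cyst tumours. Many main subunits, but few paralogues, share the window with another gene's start.

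The highest and lowest main subunit of each complex show the range. COX6B, a subunit at the interface of the complex IV dimer, had 1.63 and 2.09 in germline tumours, against 1.85 and 0.98 in cyst tumours. Both fits were called, at 1.86 with an adjusted p of 5.8e-05 in germline and 1.42 with an adjusted p of 0.00018 in cyst tumours (limma). Its window holds the starts of CG18809, CG33932 and Rpp20, and its germline input was low, at 0.280 and 0.392. ATPsynF, a subunit of the membrane part of ATP synthase, had 1.51 and 1.12 in germline tumours, against 2.21 and 1.49 in cyst tumours, with adjusted p of 0.00026 and 5.9e-06 (limma). CG3548 starts in the same window. ND-23, an iron-sulphur subunit of complex I, had 0.80 and 1.03 in germline tumours, against 1.34 and 1.16 in cyst tumours, with the start of spn-E in its window. UQCR-C1, a core protein of complex III, had 0.63 and 0.89 in germline tumours, against 1.23 and 1.23 in cyst tumours, with CycC in its window. All 4 were called in both tumours, and ND-23 and UQCR-C1 did not overlap between tumours.

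At the low end, ND-49 on chromosome 4 had -1.12 and -0.71 in germline tumours, against 0.07 and -0.35 in cyst tumours. Its germline fit of -0.91 had an adjusted p of 0.0048 (limma). ATPsynbeta, the catalytic subunit of ATP synthase and the other member on chromosome 4, had -0.61 and 0.38 in germline tumours, against 0.41 and -0.33 in cyst tumours, and was called in neither. UQCR-11 had -0.45 and -0.42 in germline tumours, against 0.86 and 0.16 in cyst tumours, without overlap and without a call. It lies at the pericentric end of chromosome arm 3L with ND-MLRQ and ND-AGGG, which also had germline values below 0 in both preparations. COX5B had -0.35 and 0.09 in germline tumours, against 0.43 and 0.94 in cyst tumours, and was called in cyst tumours with 0.68 and an adjusted p of 0.014 (limma). ND-15 had -0.09 and 0.03 in germline tumours, against -0.59 and -0.62 in cyst tumours, and was called lower in cyst tumours with an adjusted p of 0.031 (limma). It is the main subunit with TATCGATA in its promoter window that stood lowest in cyst tumours.

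The count of main subunits depended on shared windows and on single preparations. Among members with no other protein-coding start in the window, 1 of 18 paralogues and 3 of 25 main subunits (ND-ACP, ND-75 and ATPsynC) were called higher in germline tumours, against 1130 of 9717 genes (11.6%), so that share of the main subunits (12%) lay near the background. In cyst tumours 0 of 18 paralogues and 15 of 25 main subunits were called, against 1597 of 9717 genes (16.4%). On the autosomes alone 19 of 47 main subunits (40.4%) were called in germline tumours, against 20.6% of 11557 genes, and 34 of 47 (72.3%) in cyst tumours, against 26.5%. Without germline replicate 1 the germline count of main subunits was 6, where 4.7% of genes were called, and without germline replicate 2 it was 4, where 6.29% were called. Without cyst replicate 1 the cyst count was 20, where 10% of genes were called. By promoter motif, 10 of 26 main subunits with at least 1 of the 3 motifs and 12 of 33 without were called higher in germline tumours, against 34.6% and 17.5% of all genes with and without. In cyst tumours 21 of 26 with a motif and 22 of 33 without were called, against 49.5% and 22.5% of all genes.

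Each of 17 paralogues has a main subunit with the same symbol apart from the suffix, and these 15 partners allow a comparison within a preparation. The promoter windows of ND-24, ND-49, ND-51, UQCR-6.4, COX5B, COX7A, COX7C, ATPsynCF6, ATPsynG and ATPsynbeta hold another gene's start. Among the paired paralogues only those of COX7AL and ATPsynbetaL do. The pairs therefore often set a single promoter against a shared one, for every mark at promoters, and were not counted without shared windows. In germline tumours 10 of 17 paralogues lay below and 3 above their partner in both preparations. The 3 above were ND-49L, UQCR-11L and COX5BL, whose partners are the low main subunits just described. In cyst tumours 11 lay below and 0 above in both preparations. The median difference, paralogue minus main, was -0.43 in germline and -0.56 in cyst tumours. ND-24L minus ND-24 was -0.09 and -0.97 in germline tumours, against -1.53 and -1.34 in cyst tumours. COX6AL, COX6AL2, COX6CL and ATPsynepsilonL have no partner under the symbol rule.

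The partners not yet described were above the input in nearly every preparation. In complex I, ND-51 had 0.71 and 1.20 in germline tumours, against 1.32 and 0.67 in cyst tumours, and was called in both. ND-24 had 0.19 and 1.16 in germline tumours, against 0.64 and 0.75 in cyst tumours, and was also called in both. ND-20, which lies close to the quinone site, had 0.00 and 0.39 in germline tumours, against 0.63 and 0.58 in cyst tumours, and was called in cyst tumours under the replicate block alone (adjusted p 0.031, against 0.074 without the block, limma). ND-B14.5A had 0.11 and 0.36 in germline tumours, against 0.81 and 0.60 in cyst tumours, and was called in cyst tumours. In complex III, UQCR-14 had 0.01 and 0.20 in germline tumours, against 1.07 and -0.00 in cyst tumours, and was called in neither. UQCR-6.4 had 0.45 and 0.54 in germline tumours, against 0.91 and 0.32 in cyst tumours, where it was called. In complex IV, COX7A had 0.99 and 0.93 in germline tumours, against 1.27 and 0.55 in cyst tumours, and COX7C had 0.51 and 0.84 in germline tumours, against 0.81 and 0.97 in cyst tumours. Both were called in both tumours. COX4, a nuclear subunit that contacts the mitochondrially encoded core, had 0.53 and 0.47 in germline tumours, against 0.55 and 0.58 in cyst tumours, and was called in neither. In complex V, ATPsynG had 0.32 and 0.31 in germline tumours, against 0.91 and 0.90 in cyst tumours, where it was called. ATPsynCF6 had 0.45 and 0.69 in germline tumours, against 0.52 and -0.15 in cyst tumours, and was called in neither.

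**Figure D3:**
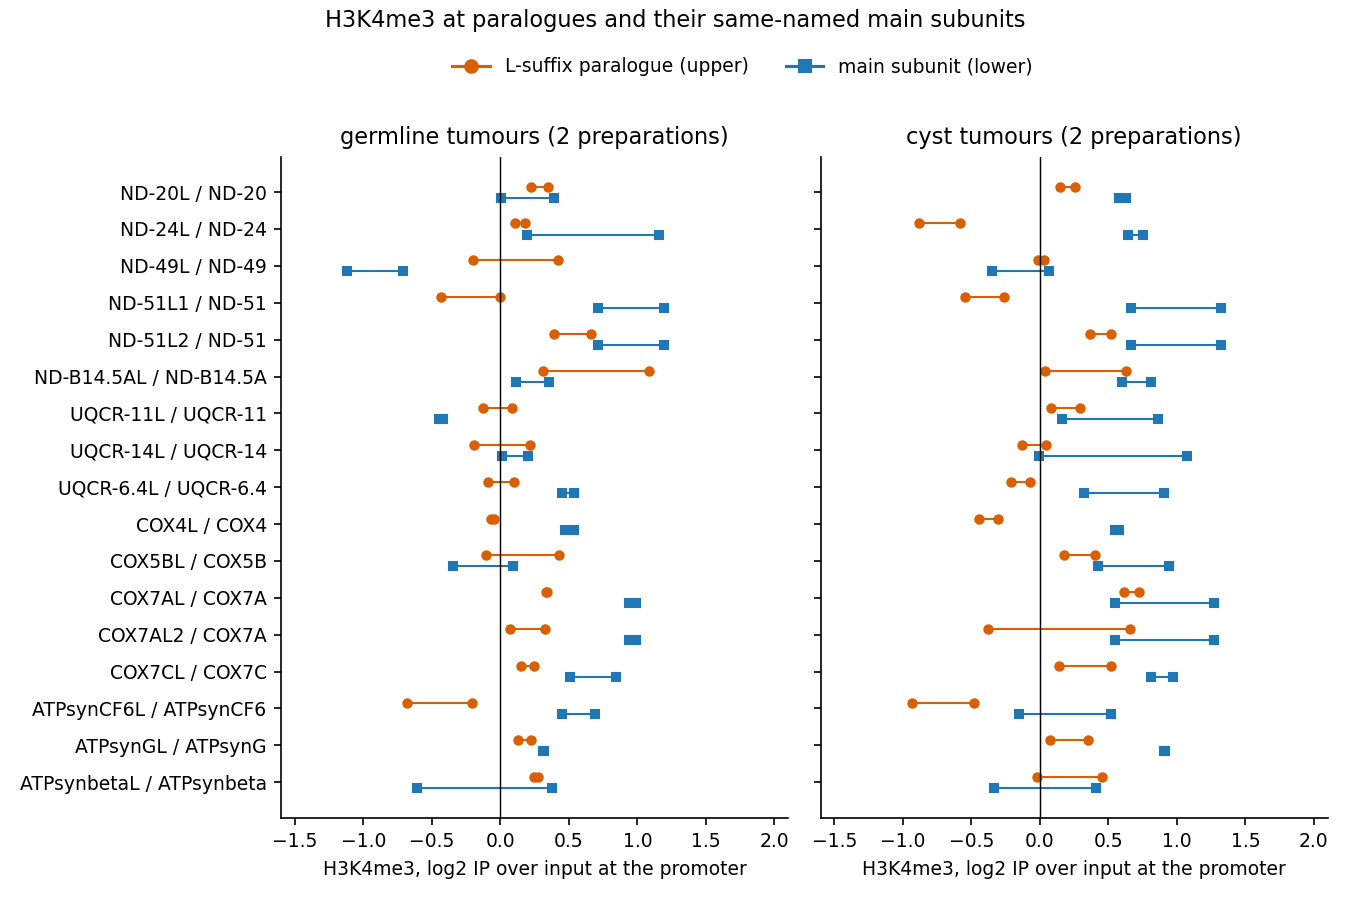
H3K4me3 log2 IP over input at the promoter for the 17 pairs of paralogue and main subunit, each preparation as a point, germline beside cyst. The paralogue lies below its partner in both preparations in 10 pairs of germline and 11 pairs of cyst tumours. Many partners, but few of these paralogues, share the window with another gene's start.

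Along the gene, the mean values of the sets lay furthest apart just downstream of the start. In the 100 bp beginning 100 bp after the start, the mean log2 IP over input of the paralogues was 0.16 in germline and 0.00 in cyst tumours. The main subunits had 1.21 in germline and 1.40 in cyst tumours there, and all genes 0.89 and 1.04. In the next 100 bp the paralogues had 0.84 in germline and 0.46 in cyst tumours, against 1.03 and 1.25 for the main subunits. Just upstream, in the 100 bp before the start, the paralogues had -0.62 in germline and -0.38 in cyst tumours, and the main subunits -0.29 and -0.71. Farther out the paralogues were not lower throughout. Their highest mean in cyst tumours, 0.95, lay in the 100 bp beginning 800 bp before the start, where the main subunits had 0.85 and 0.67 in replicates 1 and 2. In the 100 bp beginning 1400 bp after the start the paralogues had 0.63 in germline and 0.66 in cyst tumours, and the main subunits 0.33 and 0.62. When the window was set from the start to 500 bp downstream, 2 paralogues were called in each tumour, ND-51L2 and ND-24L in germline and ND-51L2 and COX6AL in cyst tumours. Main subunits called then numbered 40 in germline tumours, where 37.1% of genes were, and 49 in cyst tumours, where 40.7% were.

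**Figure D4:**
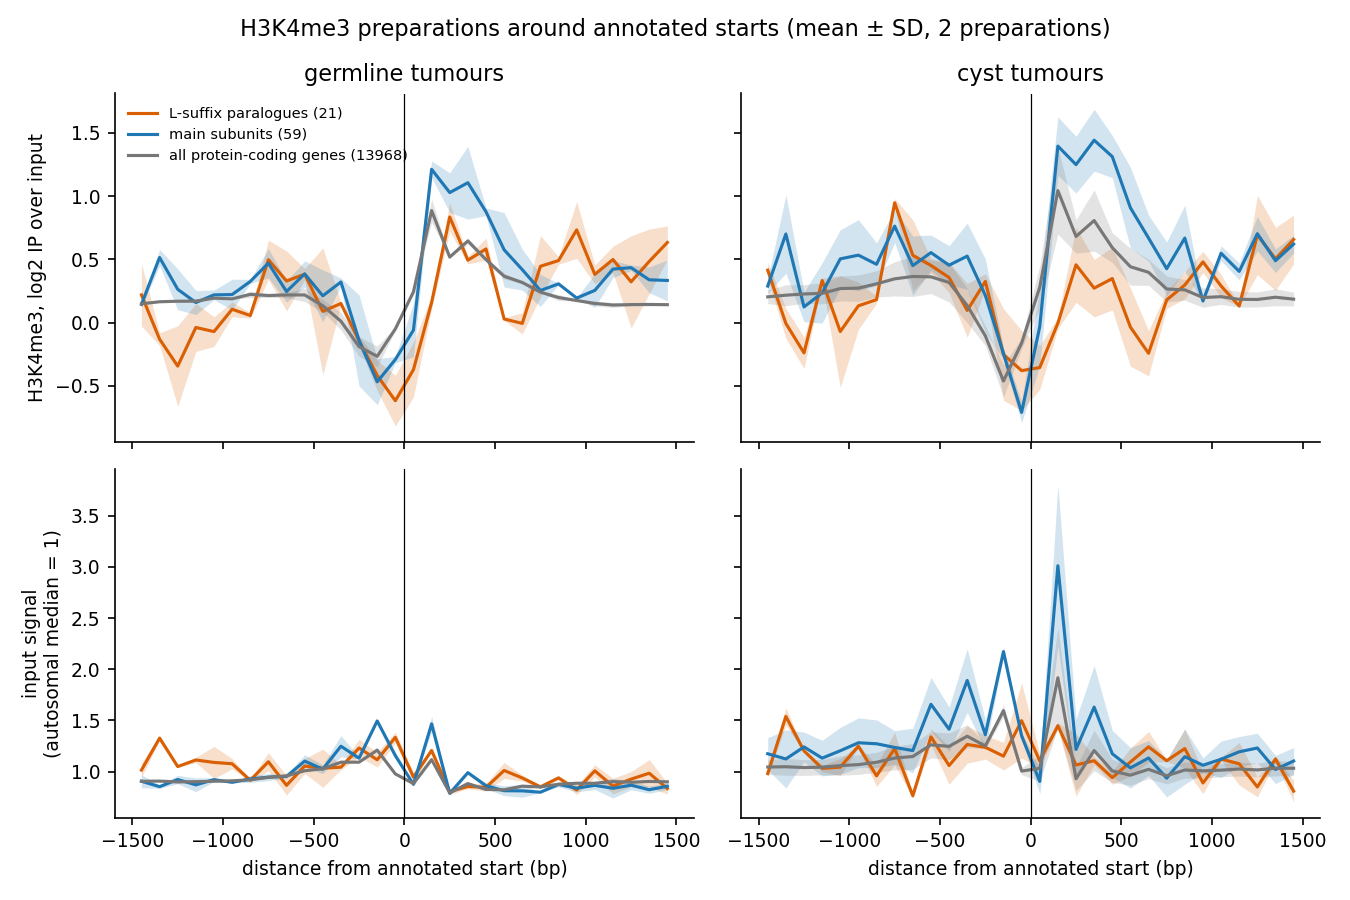
H3K4me3 in steps of 100 bp from 1500 bp before to 1500 bp after the annotated start, for paralogues, main subunits and all genes, germline beside cyst. Values are the log2 ratio of the set's mean IP signal to its mean input signal, averaged over 2 preparations. The lower panels hold the mean input signal of the same preparations, and shading is the SD of 2 preparations. At 100 bp downstream the main subunits stand at 1.21 in germline and 1.40 in cyst tumours, and the paralogues at 0.16 and 0.00.

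Over gene bodies, H3K4me3 was called higher than input at 6 of 21 paralogues in germline tumours and at 2 in cyst tumours. The main subunits called numbered 28 of 59 in germline and 47 of 59 in cyst tumours, against 20.4% of 13658 genes in germline and 25.3% in cyst tumours. The germline paralogues were COX5BL, COX4L, ATPsynbetaL, ND-24L, ND-20L and UQCR-11L. Of these, COX5BL lies inside Trmt6 and UQCR-11L inside Acsl, so their fragments also belong to the host gene. ND-24L had 1.13 and 0.71 in germline tumours, against 0.15 and 0.20 in cyst tumours. UQCR-11L had 0.58 and 0.75 in germline tumours, against -0.14 and -0.02 in cyst tumours, and COX4L had 0.61 and 0.57 in germline tumours, against -0.09 and -0.10 in cyst tumours. These 3 did not overlap between tumours, and their differences did not pass the test over all genes. How many of all genes did not overlap was not counted, so the lack of overlap is no sign of a difference. ATPsynbetaL was called in both tumours, with 1.05 and 0.64 in germline and 0.48 and 0.77 in cyst tumours, and COX6AL in cyst tumours, with -0.04 and 0.64 in germline and 0.59 and 0.91 in cyst tumours. Without germline replicate 1 no member was called in germline tumours, nor was any gene, and without germline replicate 2 the germline counts were 0 paralogues and 8 main subunits, where 6.59% of genes were called. With the replicate as a block COX5BL had an adjusted p of 0.053 (limma) and was not called. In pairs, 7 of 17 paralogues lay below and 5 above their partner in both preparations of germline tumours, against 13 and 2 of cyst tumours.

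H3K27me3 over gene bodies was called at no member in either tumour with limma at an adjusted p under 0.05. The call held for 0% of 13622 genes in germline tumours and 0.044% in the higher direction in cyst tumours, so the test had little reach for any gene. At an unadjusted p under 0.05 there were 6 paralogues (28.6%) and 8 main subunits (13.6%) in germline tumours, where 19.4% of genes stood. In cyst tumours there were 3 paralogues (14.3%) and 11 main subunits (18.6%), where 16.1% of genes stood, so these shares of the main subunits and of the cyst paralogues lay near the background. The median log2 IP over input was 0.24 for the paralogues, -0.09 for the main subunits and 0.14 for all genes in germline tumours. In cyst tumours it was 0.15 for the paralogues, -0.17 for the main subunits and 0.08 for all genes. The paralogues' median lay above that of the main subunits in 2 of 3 germline and 3 of 3 cyst preparations, with germline replicate 3 the other way by -0.05. In pairs, 8 of 17 paralogues lay above and 0 below their partner in all 3 preparations, in germline and in cyst tumours alike. The pairs compare ratios to input, so a higher ratio at the paralogue need not mean more IP signal. The IP of germline replicate 1 had the lowest depth of all libraries, while the other H3K27me3 libraries held between 2596123 and 13012231 fragments. Without germline replicate 1 the germline counts stayed at 0, and 3 paralogues and 2 main subunits were called higher in cyst tumours, where 7.28% of genes were, and 3 main subunits lower, where 1.17% were.

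Single genes show the spread of H3K27me3. ND-18, a complex I subunit on the X, had the highest body values of the main subunits of its complex, with 1.18, 0.10 and 0.50 in germline tumours, against 1.63, 1.44 and 0.79 in cyst tumours (cyst adjusted p 0.09, limma). Among paralogues, ND-51L2 had 0.39, 0.54 and 0.24 in germline tumours, against 0.85, 0.56 and 1.01 in cyst tumours (cyst adjusted p 0.096, limma). Both had every preparation above the input in both tumours without passing the test. ATPsynbetaL had 1.63, 0.38 and 0.32 in germline tumours, against 0.94, 0.57 and 0.71 in cyst tumours. ND-20L had 0.91, 0.58 and 0.25 in germline tumours, against 0.67, 1.86 and 0.35 in cyst tumours, and COX7AL had -1.23, -0.92 and -0.29 in germline tumours, against -0.50, -0.67 and -0.11 in cyst tumours. So paralogues stood on both sides of the input. The lowest main subunit of complex I was ND-AGGG with -2.64, -0.49 and -0.55 in germline tumours, against -1.18, -1.72 and -0.75 in cyst tumours. UQCR-11, its neighbour in the pericentric end of 3L, had -1.48, -0.84 and -0.33 in germline tumours, against -0.76, -0.76 and -0.45 in cyst tumours. UQCR-C2, a core protein of complex III, had 1.13, -0.25 and 0.73 in germline tumours, against 0.47, 0.24 and 0.29 in cyst tumours. The highest main subunit of complex IV was COX6B, with 0.24, -0.34 and 0.36 in germline tumours, against 0.06, 0.44 and 0.56 in cyst tumours, and the lowest was COX7A, with every value below 0. The highest of complex V was ATPsynB, a stator subunit, with 1.42, -0.53 and 0.60 in germline tumours, against 0.35, -0.09 and 0.29 in cyst tumours, and the lowest was ATPsynbeta, with every value below 0. The preparations of COX6B and ATPsynB therefore fell on both sides of the input.

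At promoters, no member was called for H3K27me3 without the block either, where 0% of 13665 genes were called in germline tumours and 0.0512% higher and 0.849% lower in cyst tumours. The medians were 0.06 for the paralogues and -0.23 for the main subunits in germline tumours, against -0.09 and -0.63 in cyst tumours. The main subunits' median varied between germline preparations, at -0.12, -0.91 and 0.19, against -0.90, -0.50 and -0.45 in cyst tumours. With IP and input of 1 preparation paired as a replicate block, 6 main subunits were called lower in germline tumours, where 1.76% of genes were. These were ND-15, COX4, ND-49, ND-MLRQ, ND-AGGG and UQCR-11. In cyst tumours 5 were called lower, ATPsynCF6, COX5A, ND-MNLL, ND-B17.2 and ND-MLRQ, where 3.81% of genes were. ND-MLRQ was the member called in both, with -1.71, -1.37 and -0.58 in germline tumours, against -1.73, -1.20 and -0.67 in cyst tumours. No paralogue was called under the block. Polycomb targets serve as a reference for the reach of the assay: the median log2 IP over input of 4 such genes at promoters was 0.46 in germline and 0.57 in cyst tumours, and none was called.

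H3K9me3 was called lower than input at part of the main subunits and at few paralogues. The ratio depends on the input as well as on the IP. In cyst tumours mean H3K9me3 input was 2.52 at main subunits and 1.31 at paralogues from 100 to 199 bp after the start. A lower ratio at main subunits therefore need not mean less IP signal, here and in the pairs. At promoters 0 of 21 paralogues and 11 of 59 main subunits were called lower in germline tumours, where 6.63% of 13708 genes were. In cyst tumours 2 paralogues (COX7AL and COX7AL2) and 30 main subunits were called lower, where 26.6% of genes were, and 10 of the 30 belonged to the 11 main subunits of complex V. The other complexes are not counted here, and differences between complexes were not tested. No member was called higher at the promoter, where 0.153% of genes were in germline and 0.321% in cyst tumours. Medians were -0.12 for the paralogues, -0.30 for the main subunits and -0.12 for all genes in germline tumours. In cyst tumours they were 0.01 for the paralogues, -0.59 for the main subunits and -0.30 for all genes. Under TMM scaling 6 main subunits and 0 paralogues were called lower in cyst tumours, where 7.9% of genes were, and 3 paralogues were called higher, where 5.11% were, so the count depends on the scaling. Without germline replicate 1 no main subunit was called lower in germline tumours, where 0.117% of genes were, and without germline replicate 2 there were 22, where 16.9% were. Without cyst replicate 1 the cyst count was 18, where 21.5% of genes were called, and without cyst replicate 2 it was 15, where 12.9% were. In pairs, 14 of 17 paralogues lay above and 0 below their partner in both preparations of cyst tumours, against 8 and 3 of germline tumours.

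COX7AL2 had promoter H3K9me3 of -0.02 and -0.22 in germline tumours, against -0.67 and -0.85 in cyst tumours, with an adjusted p of 0.00016 in cyst tumours (limma). COX7AL had -0.98 and 0.13 in germline tumours, against -0.66 and -0.71 in cyst tumours. Both paralogues of COX7A were thus below the input in cyst tumours, where COX7A itself had -0.49 and -0.94. Among complex V subunits, ATPsynG had -0.64 and 0.04 in germline tumours, against -1.23 and -0.92 in cyst tumours, and ATPsynCF6 had -0.83 and -0.22 in germline tumours, against -1.06 and -1.02 in cyst tumours. Neither overlapped between tumours, and no member passed the test of germline minus cyst at the promoter, where 2.15% of genes were called higher and 0.0073% lower.

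Over gene bodies, H3K9me3 calls were few. In germline tumours 1 paralogue and 0 main subunits were called lower, where 1.87% of 13705 genes were, and no member was called higher, where 0.0657% were. The paralogue was ATPsynepsilonL, with -0.58 and -0.67 in germline tumours, against -0.31 and -0.40 in cyst tumours, with an adjusted p of 0.023, which was 0.054 with the replicate block (limma). In cyst tumours 2 paralogues and 9 main subunits were called lower, where 4.16% of genes were. The paralogues were COX7AL, with -0.85 and -1.11 and an adjusted p of 0.038, which was 0.071 with the block (limma), and COX7AL2, with -0.80 and -0.85 and an adjusted p of 0.017 (limma). The main subunits were ATPsynG, ND-ASHI, ND-B17.2, ND-B15, ATPsynE, COX7C, ND-AGGG, ND-MWFE and COX8, and none was called without cyst replicate 1, where 0% of genes were, or without cyst replicate 2, where 0.0657% were. With the block ND-B15 had an adjusted p of 0.060, against 0.029 without it (limma), and was not called. ND-20L was called higher in cyst tumours, where 0.394% of genes were. It had 0.34 and -0.02 in germline tumours, against 0.93 and 0.60 in cyst tumours, with an adjusted p of 0.011 in cyst tumours (limma). The groups do not overlap, but the input of ND-20L was low in cyst tumours. It was 0.447 and 0.590 there, against 0.889 and 0.973 in the germline inputs of the same mark, so the ratio need not mean more IP signal. Among main subunits the lowest of complex III was UQCR-14, with -1.03 and -0.61 in germline tumours, against -0.72 and -0.56 in cyst tumours. It was called lower in cyst tumours under the block alone, with an adjusted p of 0.038, against 0.098 without it (limma). The highest value of complex I was that of ND-18, with -0.30 and 0.80 in germline tumours, against 0.31 and 0.06 in cyst tumours. In complex IV the highest body value was that of COX4, with 0.08 and -0.08 in germline tumours, against 0.21 and -0.01 in cyst tumours. COX8 was the lowest there, with -0.75 and -0.38 in germline tumours, against -0.59 and -0.63 in cyst tumours. Complex V ranged between ATPsyndelta, with -0.18 and 0.06 in germline tumours, against -0.33 and -0.05 in cyst tumours, and ATPsynG, with -0.91 and -0.18 in germline tumours, against -1.15 and -0.89 in cyst tumours. Of these 4 genes, COX8 and ATPsynG passed the test, in cyst tumours. Medians were -0.10 for the paralogues, -0.28 for the main subunits and -0.10 for all genes in germline tumours, and -0.09, -0.30 and -0.07 in cyst tumours.

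Between the tumours, no member passed the test of germline minus cyst for H3K4me3 at the promoter, where 0% of genes were called and 1350 genes had an unadjusted p under 0.05 with limma. At that unadjusted level stood 1 of 21 paralogues (4.76%) and 10 of 59 main subunits (16.9%), against 9.86% of genes. The median difference was 0.05 for the paralogues, -0.38 for the main subunits and -0.07 for all genes, and 52 of 59 main subunits and 9 of 21 paralogues were negative. UQCR-C2 had -0.97 and -0.00 in germline tumours, against 0.66 and 0.83 in cyst tumours, a difference of -1.23 with an unadjusted p of 0.00089 and an adjusted p of 0.29 (limma). ATPsyndelta, a subunit of the central stalk, had -0.60 and 0.32 in germline tumours, against 0.90 and 1.08 in cyst tumours, a difference of -1.13 with an adjusted p of 0.29 (limma). ND-13A had -0.15 and 0.47 in germline tumours, against 0.99 and 1.20 in cyst tumours. These 3 do not overlap between tumours and were chosen after their values were seen, and the batch label differs with the tumour in these preparations, which leaves the pair confounded. No member was called for germline minus cyst in H3K4me3 over bodies, in H3K27me3 at either window or in H3K9me3 over bodies, where 0% of genes were called in each.

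Over all 14 inputs, signal was called lower in germline than in cyst tumours at many main subunits. Part of these inputs have batch labels that go with the tumour type, so batch and tumour cannot be told apart for them. In batches that held both tumour types no member was called at promoters, as given below. At promoters 3 of 21 paralogues and 35 of 59 main subunits were lower in germline than in cyst tumours (limma over 14 inputs, 7 per tumour type), where 29.5% of 13701 genes were. The paralogues were COX5BL, ATPsynepsilonL and COX7CL. In the other direction 1 paralogue, ATPsynCF6L, was called, where 0.912% of genes were. The median signal of the main subunits was 1.06 in germline tumours, with libraries from 0.891 to 1.34, against 1.37 in cyst tumours, with libraries from 1.13 to 1.85. The paralogues' was 1.05 in germline tumours, from 0.980 to 1.10, against 1.16 in cyst tumours, from 1.08 to 1.25. For all genes it was 1.02 in germline and 1.14 in cyst tumours. Median log2 differences were -0.13 for the paralogues, -0.41 for the main subunits and -0.21 for all genes, and 58 of 59 main subunits were negative. On the autosomes 26 of 47 main subunits (55.3%) were called lower, against 27.8% of 11565 genes.

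**Figure D5:**
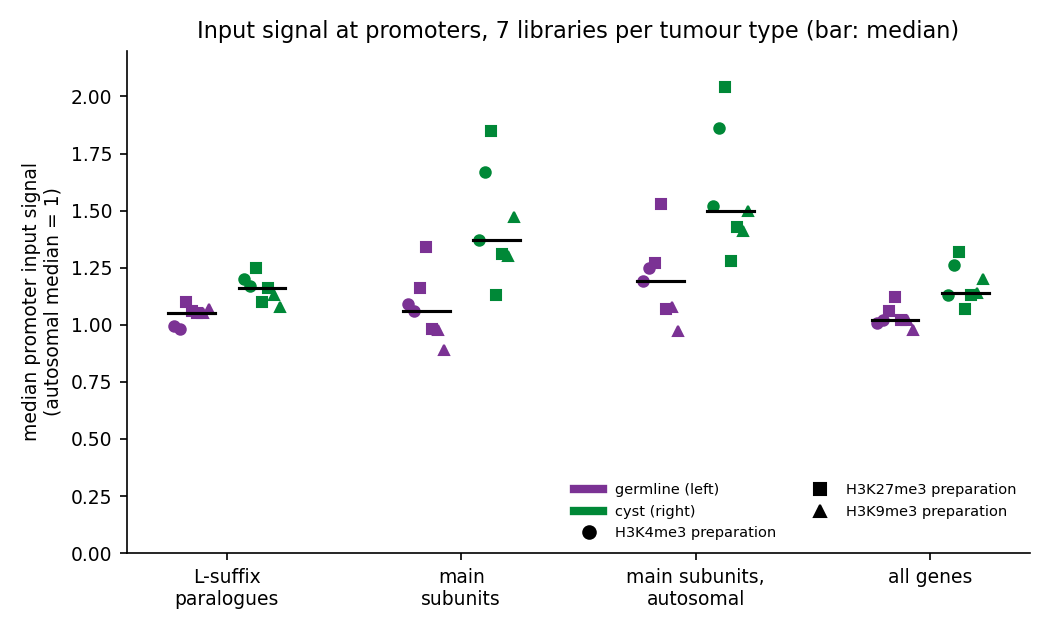
Median input signal at promoters of paralogues, main subunits, autosomal main subunits and all genes, with a bar at the median over libraries, in each of the 14 input libraries, 7 germline beside 7 cyst, where 1 is the autosomal median of the library. The main subunits have a median over libraries of 1.06 in germline and 1.37 in cyst tumours, and the paralogues 1.05 and 1.16. The batch labels of part of these libraries go with the tumour type.

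The size of the input difference stands apart from its test. Under TMM 0 paralogues and 6 main subunits were called lower, where 5.34% of genes were, and 5 paralogues and 0 main subunits higher, where 5.15% were. The medians under TMM were 0.10 for the paralogues, -0.19 for the main subunits and 0.01 for all genes. The main subunits stood -0.20 from the median of all genes under both scalings. In batches that held both tumour types no member was called, where 0.073% of genes were called lower. The median differences there were -0.10 for the paralogues, -0.31 for the main subunits and -0.18 for all genes, with 56 of 59 main subunits negative. Along the gene, input in the H3K9me3 preparations, which share 1 batch label, peaked in the main subunits at 1.58 in germline and 2.52 in cyst tumours in the 100 bp from 100 bp downstream of the start. The paralogues had 1.28 in germline and 1.31 in cyst tumours there, and all genes 1.33 and 1.75.

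Among single members, the input of ND-B14.5A at the promoter ranged from 0.604 to 0.939 with a median of 0.735 in germline tumours, against 0.951 to 1.26 with a median of 1.06 in cyst tumours. The groups do not overlap, and the difference was -0.51 with an adjusted p of 0.0029 (limma). ND-B17.2 ranged from 1.05 to 1.92 with a median of 1.22 in germline tumours, against 1.88 to 2.42 with a median of 2.11 in cyst tumours, a difference of -0.63 with an adjusted p of 0.0021 (limma). ND-MNLL ranged from 0.462 to 0.959 with a median of 0.611 in germline tumours, against 0.868 to 1.26 with a median of 0.996 in cyst tumours, a difference of -0.68 with an adjusted p of 0.0026 (limma). These last pairs of ranges overlap. ATPsynCF6L ranged from 0.699 to 0.922 with a median of 0.813 in germline tumours, against 0.299 to 0.725 with a median of 0.691 in cyst tumours, a difference of 0.41 with an adjusted p of 0.034 (limma). ND-49L (0.30, adjusted p 0.072, limma) and ATPsynGL (0.24, adjusted p 0.083, limma) followed in that direction without passing the test.

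Over gene bodies, input was lower in germline than in cyst tumours at 2 of 21 paralogues (COX7AL2 and COX7CL) and 25 of 59 main subunits, where 20.3% of 13690 genes were. UQCR-14L was called higher, where 1.67% of genes were, with a range of 0.784 to 1.34 and a median of 1.02 in germline tumours, against 0.453 to 1.06 and 0.776 in cyst tumours. Its difference was 0.50 with an adjusted p of 0.038 (limma), and the ranges overlap. ND-ASHI ranged from 0.544 to 0.640 with a median of 0.593 in germline tumours, against 0.892 to 1.17 with a median of 1.05 in cyst tumours, a difference of -0.69 with an adjusted p of 0.00016 (limma). ND-AGGG ranged from 0.290 to 0.602 with a median of 0.522 in germline tumours, against 0.620 to 1.05 with a median of 0.764 in cyst tumours, a difference of -0.67 with an adjusted p of 0.0020 (limma). Neither ND-ASHI nor ND-AGGG overlaps between the tumours. ND-B12 differed by -0.62 with an adjusted p of 0.0044 (limma), and among the higher ones ND-20L by 0.35 and ND-49L by 0.24 did not pass. In batches that held both tumour types 2 main subunits and 0 paralogues were called lower over bodies, where 0.0949% of genes were.

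The rest of the pathway was read from a list of 21 genes outside the symbol rule. It takes in complex II, further subunits of complexes III, IV and V, cytochrome c and assembly factors. H3K4me3 at promoters was called higher at 6 of 21 in germline tumours (Cox17, levy, Cyt-c1, SdhC, SdhA and Scox; 28.6%), where 20.8% of genes were, and at 11 of 21 in cyst tumours (52.4%), where 27.7% were. The testis forms in this list were not called. SdhAL, related to the flavoprotein of complex II, had 0.62 and 0.39 in germline tumours, against -0.20 and -0.36 in cyst tumours, without overlap. SdhBL had -0.15 and -0.12 in germline tumours, against 0.58 and 0.05 in cyst tumours, and Cyt-c1L had -0.27 and 0.07 in germline tumours, against 0.29 and 0.11 in cyst tumours. Cyt-c-d, the cytochrome c of the male germline, had 0.41 and -0.17 in germline tumours, against 0.53 and -0.16 in cyst tumours, with both tumours on both sides of the input. knon, a testis relative of ATPsynD, had -0.43 and -0.18 in germline tumours, against -0.49 and -0.53 in cyst tumours. Input at promoters was called lower in germline than in cyst tumours at 9 of these 21 genes (42.9%), where 29.5% of genes were. Among 12 spermatocyte genes, nht (1 gene, 8.33%) was called higher for H3K4me3 in germline tumours and none was in cyst tumours, against the same 20.8% and 27.7% of genes.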

How the data were processed

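The authors deposited 1 table of scaled fragment signal in windows of 40 bp every 20 bp for 28 libraries. Reads were aligned with Bowtie2 2.4.5 to dm6, per the submitters' processing notes; no source used here gives the fragment filters. Within a library all deposited signal values were multiples of a common step (100%, tolerance 0.1), which returned whole fragment counts. Signal was summed over promoters (start ±500 bp) and gene bodies. Genes with a mean of at least 10 fragments per library entered limma 3.58.1 (R 4.3.3) on log2(signal + 0.1), fitted over all genes with Benjamini-Hochberg adjustment; folds are on that scale, which understates changes of low values. IP was compared with input per tumour type, then germline minus cyst as the interaction; 14 inputs were compared with the mark as a covariate. Counts tested with edgeR 4.0.16 were an alternative. The scripts were tested on simulated data.

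Per the labels' protocols, an IP and the input with its number were taken from 1 solubilised preparation. Deviations of such pairs correlated at 0.05 in germline and 0.01 in cyst tumours for H3K4me3, at -0.09 to 0.34 for H3K27me3, and at -0.14 in germline and 0.14 in cyst tumours for H3K9me3. Named genes are all paralogues, their partners, the highest and lowest main subunit per complex and mark, and the 3 input members with the smallest p in each direction. Members, lists and motifs were chosen with earlier results of these data known, and the GGTCACACT and initiator searches after values were seen.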

Additional observations from a re-analysis of the deposited data

Results flagged for a closer look

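The 14 input values of each of the members named for input were screened for a sample far from the others, as were the input medians of paralogues and of main subunits. This gave 32 groups of 7, and chance flags about 1 in 20 of such groups. A single value stood out. In germline tumours the promoter input of ND-MNLL was 0.959 in replicate 1 of the H3K27me3 preparations, while the other 6 inputs lay between 0.462 and 0.653, and the gap to the nearest was 0.615 of the whole range.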

How the results depend on the processing

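Of 4245 alternative values for 378 values of named genes, 3911 counted as unchanged, 115 lost the call, 55 gained it, 163 moved and 1 reversed. A called value counted as unchanged if it kept its call, and an uncalled one if it shifted by less than its SD between preparations. Uncalled values could therefore change sign and still count as unchanged, and reversals were looked for among called values only. The reversed value was the cyst H3K4me3 promoter value of ND-24L, which was 0.16 from the start to 500 bp downstream. The cause was not tested for any change below. Counts are of main subunits called, or of paralogues where named. The share of all genes called moved with the setting too. For H3K4me3 promoters, in the higher direction, it was 20.8% in germline and 27.7% in cyst tumours in the main fit. A change in a count is therefore not by itself a result about the members, also where no share stands beside it. With a pseudocount of 0.5, H3K4me3 promoter counts were 14 and 0 paralogues in germline tumours, where 11.6% of genes were called higher. In cyst tumours 0 paralogues were, where 20.3% of genes were. H3K9me3 promoter counts were 0 in germline and 13 and 1 paralogue in cyst tumours, with 4 members for the difference. H3K27me3 promoters gave 4 in cyst tumours, where 3.54% of genes were called lower. H3K4me3 bodies gave 2 paralogues in germline and 0 in cyst tumours, where 8.68% and 16.2% of genes were higher. H3K9me3 bodies gave 0 paralogues in germline and 4 main subunits in cyst tumours. Without a filter, promoters gave 13 and 0 paralogues for germline H3K4me3, where 14.9% of genes were called higher. They gave 3 for germline and 1 paralogue for cyst H3K9me3, and bodies gave 1 paralogue for cyst H3K9me3. With a filter of 30, bodies gave 1 main subunit for germline H3K9me3 and 1 paralogue for cyst H3K4me3, where 25.7% of genes were called higher for H3K4me3. Under TMM, H3K4me3 promoters gave 11 and 0 paralogues in germline and 27 and 0 in cyst tumours, where 10% and 14.4% of genes were called higher. H3K9me3 promoters gave 4 in germline and 6 and 0 in cyst tumours, where 425 and 1083 of all genes were called lower. Input promoters gave 6 and 0, where 731 genes were lower. H3K4me3 bodies gave 1 paralogue in germline and 0 in cyst tumours, where 7.89% and 9.86% of genes were higher. Cyst H3K27me3 bodies gave 4 members, where 219 genes were higher and 35 lower. Germline H3K9me3 bodies gave 0 paralogues, where 59 genes were lower, and input bodies gave 12, where 902 were lower. From the start to 500 bp downstream, counts were 40 and 2 paralogues in germline and 2 paralogues in cyst tumours for H3K4me3. There 37.1% of genes were called higher in germline and 40.7% in cyst tumours. Counts were 3 and 1 for germline H3K9me3, and 22 and 1 for input. Without members that share a window, counts were 3 in germline and 15 and 0 paralogues in cyst tumours for H3K4me3, with the shares of all such genes given above. For H3K9me3 they were 4 in germline and 13 and 1 in cyst tumours. With edgeR on fragments, the count was 5 for cyst H3K27me3 promoters, where 4.59% of genes were called lower. Counts were 1 for the H3K9me3 promoter difference, 5 paralogues for promoter input, and 9 for germline and 2 for the difference in H3K9me3 bodies. They were 2 for cyst H3K27me3 bodies and 4 paralogues for body input. In batches with both tumour types, input counts were 0 and 0 paralogues at promoters and 2 and 0 over bodies, where 10 and 13 of all genes were called lower.

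With the replicate block, H3K27me3 promoters gave 6 in germline and 5 in cyst tumours, and H3K9me3 bodies gave 0 paralogues in germline and 1 in cyst tumours lower; ND-B18 and ND-20 joined the cyst H3K4me3 promoter calls.

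Leaving out each preparation, H3K4me3 promoter counts ran from 4 to 20 and from 0 to 1 paralogue in germline, from 20 to 44 and from 0 to 1 in cyst tumours, and from 0 to 1 for the difference. H3K9me3 promoter counts ran from 0 to 22 and from 0 to 2 in germline, from 15 to 30 and from 1 to 2 in cyst tumours, and from 0 to 14 for the difference; H3K27me3 promoter counts ran from 0 to 1 in germline and 0 to 9 in cyst tumours. Body counts ran from 0 to 27 and 0 to 5 in germline and 23 to 42 and 0 to 2 in cyst tumours for H3K4me3, 0 to 8 for cyst H3K27me3, and 0 to 1 and 0 to 1 in germline and 0 to 9 and 0 to 2 in cyst tumours for H3K9me3. Input counts ran from 19 to 42 and 3 to 5 at promoters and from 13 to 38 and 2 to 4 over bodies. With 1 preparation left in an arm, that preparation is assumed to vary like the others. The share of all genes called also changed between omissions, so these ranges are not by themselves a result about the members. The shallowest IP, germline H3K27me3 replicate 1, held 942943 fragments, and the part of depth in these counts was not tested.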
